A study of Mus musculus with 5 samples.

Results

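The genes described here are 34 genes that type I interferon turns on in mouse cells, from Ifit1 to Samd9l, named by symbol in a list and looked up by exact symbol among the 39179 genes of the deposited tables. All 34 were found, each with 1 identifier, and all 34 passed the filter on low values (a mean of at least 1 CPM, the reads of a gene scaled to a total of 1000000 per library). They were followed in 5 RNA-seq libraries of erythroid cells, the red cell precursors, which had been picked from marrow or spleen with magnetic beads against CD71, the transferrin receptor. The control group was 1 library from the bone marrow of untreated mice. The UVB group was 2 libraries from the spleens of mice whose skin was irradiated with UVB at 50 mJ/cm2, and the tumor group was 2 libraries from the spleens of mice given B16 melanoma cells under the skin. The strain is labelled C57BL/6 for the control and UVB libraries, and C57BL/7 and C57BL/8 for tumor 1 and tumor 2. Whether these last labels are entry errors is not known. Taken as labelled, strain and treatment cannot be told apart in comparisons with the tumor libraries. The labels give no age, no time after treatment, no number of animals per library and no untreated spleen, so organ and treatment cannot be told apart in either comparison with the control. Whether the libraries of 1 group stem from different animals is not stated, so p-values measure only the spread between these libraries, which may be technical.

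Type I interferons bind a receptor made of IFNAR1 and IFNAR2, whose kinases JAK1 and TYK2 phosphorylate STAT proteins, STAT2 among them. These join IRF9, enter the nucleus and bind the interferon-stimulated response element (ISRE) beside their target genes. The targets include sensors of viral RNA and DNA, enzymes that block viral translation and replication, and the signalling proteins themselves, so that the response feeds back on its own machinery. Uninfected blood cells also express many of these genes at a low level. Most are expressed by many cell types, among them the macrophages that surround red cell precursors in marrow and spleen.

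The libraries held 5003923 to 5921270 reads in genes, at which 1 read was worth 0.168 to 0.198 CPM. The tumor libraries were further apart from each other than the UVB libraries, with 18.2% of 15006 tested genes over 2-fold apart against 5.66%. The 19 matched erythroid markers, among them Tfrc, Epor and Klf1, summed to 7683 CPM in control marrow, 8222 to 8566 in UVB spleens and 7577 to 8512 in tumor libraries (tumor minus UVB median -0.12). Tfrc, which encodes CD71, was at 665 CPM in control marrow, 776 and 719 in UVB spleens and 802 and 716 in tumor libraries. The globin gene Hbb-bs, also in this list, was at 75.17, 97.76 and 75.67, and 66.7 and 71.98 CPM. No gene of at least 200 exon bases had more than 0.955 to 1.14 reads per base of exon, by library. The part of this limit in the erythroid levels was not tested, so the sums do not give the share of erythroid cells against other cells. Defining markers of other cells were present too. Of 18 macrophage markers 18 had reads in every library, and they summed to 4204 CPM in control marrow, 4829 to 5519 in UVB spleens and 2149 to 3104 in tumor libraries. The 10 matched B cell markers, all with reads in every library, summed to 1079, 1818 to 1932, and 478 to 1344 CPM in the same order, and the 14 monocyte markers to 758, 1123 to 1294, and 458 to 814 CPM. In RNA from such mixtures fewer cells of a type and less RNA per cell cannot be told apart.

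The interferon response genes were lower in the tumor spleens than in the UVB spleens. Summed over the 34 genes, the level was 3402 CPM in control marrow, 4182 and 4239 in the UVB libraries, and 2380.5 and 2351 in tumor 1 and 2. Between the spleen groups 18 of 34 genes fell in the tumor libraries and 0 rose, against 4.7% of all 15006 tested genes called lower and 12.3% called higher. Neither tumor library overlapped the UVB libraries in 32 of the 34, all lower, where 34.8% of all tested genes were lower without overlap. The median log2 difference was -1.24 over the 34 genes and 0.0146 over all genes. The 16 that were not called gave values from -2.55 (Mx1) to 0.12 (Ifit2). Differences are given in log2(CPM + 1), in which changes of genes with low levels look smaller than they are, and a gene was called at an adjusted p under 0.05 in limma.

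**Figure D1:**
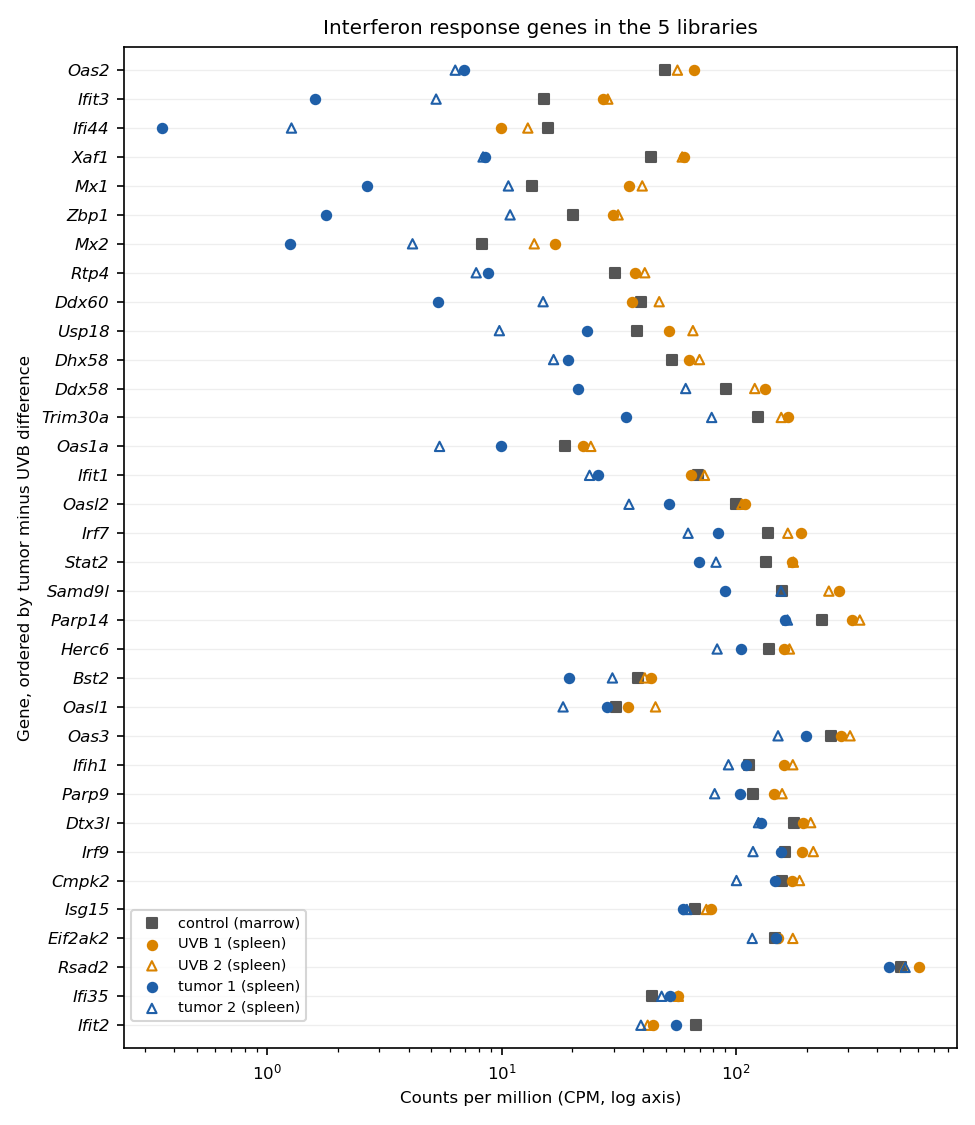
Level of each of the 34 interferon response genes in CPM on a log axis, with 1 point per library (grey square control, orange UVB, blue tumor, filled circles for replicate 1 and open triangles for replicate 2). Genes are ordered by the tumor minus UVB difference, and the blue points lie left of the orange ones in 32 of 34 rows, Rsad2 and Ifit2 being the exceptions.

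Among the proteins that carry the signal, Stat2 and Irf7 fell in tumor against UVB spleens. Stat2, the partner of IRF9 in the nuclear complex, was at 134 CPM in control marrow, 174 and 176 in the UVB libraries, and 69.4 and 82.1 in tumor 1 and 2. Both tumor libraries lay below the control and both UVB libraries above it (tumor minus UVB -1.20, SE 0.12, adjusted p = 0.0209). Irf7, the transcription factor that amplifies interferon production, was at 136 CPM in control marrow, 189 and 166 in UVB spleens and 83.9 and 62.4 in tumor libraries. The groups did not overlap (-1.28, SE 0.18, adjusted p = 0.0273). Irf9, the DNA-binding part of the complex, was at 161, 191 and 214, and 155 and 118 CPM, again without overlap, and was not called (-0.57, adjusted p = 0.0768). Usp18, which removes ISG15 from proteins and also silences the receptor, was at 37.7, 52.0 and 65.4, and 23.1 and 9.77 CPM (-1.88, adjusted p = 0.0511). Its tumor libraries stood apart from each other, with tumor 1 above tumor 2.

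Of the sensors, Dhx58 and Ifih1 fell. Dhx58 encodes LGP2, which regulates the RNA sensors, and was at 53.0 CPM in control marrow, 63.1 and 69.8 in UVB spleens and 19.2 and 16.6 in tumor libraries (-1.84, SE 0.15, adjusted p = 0.02). Its tumor libraries lay close together and far below the other 3. Ifih1, which encodes the RNA sensor MDA5, was at 113, 160 and 175, and 111 and 92.8 CPM, so that it differed between the spleen groups (-0.71, SE 0.13, adjusted p = 0.0368) with tumor libraries near the control. Ddx58, which encodes the RNA sensor RIG-I, was at 90.9 CPM in control marrow, 132 and 120 in UVB spleens, and 21.1 and 61.0 in tumor 1 and 2. Tumor 1 was the lowest library, and the gene was not called (-1.78, adjusted p = 0.0753). Zbp1, a sensor of left-handed nucleic acids, was at 20.2, 29.9 and 31.4, and 1.77 and 10.9 CPM, and Ddx60, a helicase, at 39.4, 35.9 and 47.0, and 5.32 and 15.0 CPM. Neither was called (adjusted p = 0.0789 and 0.055), and in both the lower tumor value was tumor 1.

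The 2'-5' oligoadenylate synthetases make the messenger that activates RNase L, which cuts RNA. Oas2 had the largest difference of all 34 genes on this scale. It was at 49.5 CPM in control marrow, 66.2 and 56.2 in UVB spleens and 6.92 and 6.33 in tumor libraries, a mean of 61.2 ± 7.09 against 6.62 ± 0.416 CPM (SD, n = 2 each; log2 difference -3.02, SE 0.18, adjusted p = 0.02). The gene next to it on chromosome 5, Oas3, was at 254 CPM in control marrow, 280 and 307 in UVB spleens and 199 and 151 in tumor libraries, a smaller difference that was also called (-0.75, SE 0.16, adjusted p = 0.0482). Oas1a was at 18.7, 22.2 and 24.0, and 9.93 and 5.43 CPM (-1.52, adjusted p = 0.0461). Oasl2, which in mice keeps synthetase activity, was at 100.3, 109 and 106, and 51.8 and 34.9 CPM (-1.32, adjusted p = 0.0313). Its neighbour Oasl1, which lacks that activity and is known in mice as a brake on Irf7 translation, was at 30.9, 34.7 and 45.3, and 28.2 and 18.3 CPM and was not called (-0.78, adjusted p = 0.108). All 5 were lower in both tumor libraries than in either UVB library.

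The IFIT proteins bind viral RNA that lacks the host's cap methylation or block its translation. Ifit1 was at 68.7 CPM in control marrow, 64.4 and 73.3 in UVB spleens and 25.7 and 23.7 in tumor libraries (-1.44, SE 0.14, adjusted p = 0.0202). The control lay between the UVB libraries, and both tumor libraries lay well below. Ifit3 was at 15.2, 27.0 and 28.4, and 1.60 and 5.25 CPM (-2.83, SE 0.47, adjusted p = 0.0324). Ifit2 went another way, with 67.5 CPM in control marrow, 44.0 and 41.9 in UVB spleens and 55.3 and 39.2 in tumor libraries. Its spleen groups overlapped and it was not called (0.12, SE 0.20, adjusted p = 0.685), although all 3 genes lie on chromosome 19 between bases 34550694 and 34650009 of GRCm38. Eif2ak2 encodes PKR, the kinase that halts translation in response to viral RNA. It was at 147, 151 and 175, and 148 and 117 CPM (-0.30, adjusted p = 0.213).

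Of the GTPases and the membrane and nucleotide effectors, 1 of 5 was called lower, where 4.7% of all tested genes were. Mx2, a dynamin-like GTPase, was at 8.20 CPM in control marrow, 16.9 and 13.8 in UVB spleens and 1.24 and 4.16 in tumor libraries (-2.25, SE 0.47, adjusted p = 0.0447). Its neighbour Mx1, the influenza resistance gene that C57BL/6 mice carry in a defective form, was at 13.4, 34.9 and 39.8, and 2.66 and 10.7 CPM. The groups did not overlap, but the tumor libraries differed 4.01-fold and the gene was not called (-2.55, SE 0.59, adjusted p = 0.0531). Bst2, which encodes tetherin, the protein that holds budding virus on the cell, was at 38.0, 43.2 and 40.8, and 19.3 and 29.7 CPM (-0.78, adjusted p = 0.0856). Cmpk2, a mitochondrial nucleotide kinase, was at 157, 173 and 187, and 146 and 100.4 CPM (-0.56, adjusted p = 0.111). Rsad2, which encodes viperin, makes a chain-terminating nucleotide from CTP and lies beside Cmpk2 on chromosome 12. It was at 507.5 CPM in control marrow, 604 and 524 in UVB spleens and 450.1 and 526 in tumor libraries, overlapped between the spleen groups and was not called (-0.21, SE 0.14, adjusted p = 0.302).

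Rsad2 was also the gene with the most reads for its length. Per kilobase of exon it stood at 117 CPM in control marrow, 139 and 121 in UVB spleens and 104 and 121 in tumor libraries, and Isg15 came next at 88.1, 103 and 98.8, and 78.4 and 81.6 CPM per kilobase. The highest library held 0.72 reads per base of exon for Rsad2 and 0.59 for Isg15, and at most 0.27 for each of the other 32. The highest value of any gene of at least 200 exon bases was 0.955 to 1.14 by library. Rsad2 and Isg15 were thus closest to the top of the range that any gene reached, and the part of this in their small differences was not tested. At the other end Ifi44 stood at 1.62 and 2.11 CPM per kilobase in UVB spleens and 0.0579 and 0.207 in tumor libraries.

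ISG15 is a ubiquitin-like protein that is joined to other proteins, in mice by the ligase Herc6. Isg15 was at 66.6 CPM in control marrow, 78.1 and 74.7 in UVB spleens and 59.3 and 61.7 in tumor libraries and was not called (-0.33, SE 0.11, adjusted p = 0.0927). Herc6 fell, from 160 and 169 CPM in UVB to 105 and 83.0 in tumor libraries, with 138 in the control (-0.81, SE 0.15, adjusted p = 0.0368). Parp14, an ADP-ribosyltransferase, was at 233, 311 and 337, and 162 and 166 CPM (-0.98, SE 0.10, adjusted p = 0.0204). Its neighbours on chromosome 16, the ubiquitin ligase gene Dtx3l and its partner Parp9, were at 177, 194 and 208, and 128 and 125 CPM (-0.67, adjusted p = 0.0284), and at 118, 145 and 157, and 104 and 81.0 CPM (-0.71, adjusted p = 0.049). Dtx3l and Parp9 share 458 exon bases on opposite strands, and reads there cannot be told apart where the strand setting is not given. Trim30a, an inhibitor of toll-like receptor signalling in mice, was at 124, 166 and 156, and 33.9 and 78.7 CPM and was not called (-1.62, adjusted p = 0.061).

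Of the other induced genes, Xaf1, Ifi44 and Rtp4 fell. Xaf1, which encodes an antagonist of the apoptosis inhibitor XIAP, was at 43.3 CPM in control marrow, 59.7 and 58.9 in UVB spleens and 8.52 and 8.32 in tumor libraries (-2.68, SE 0.15, adjusted p = 0.02). Libraries of a group were nearly equal, at 59.3 ± 0.564 and 8.42 ± 0.138 CPM (SD, n = 2 each). Rtp4, a chaperone of cell surface receptors, was at 30.5, 36.9 and 40.8, and 8.69 and 7.78 CPM (-2.11, SE 0.18, adjusted p = 0.02). Ifi44 was at 15.7 CPM in control marrow, 9.91 and 12.9 in UVB spleens and 0.355 and 1.27 in tumor libraries, the latter resting on 1 and 6 reads (-2.81, SE 0.35, adjusted p = 0.0231). At so few reads its difference moved with the scale, from -1.50 on log2(CPM + 5) to -4.22 on recovered reads in edgeR. Samd9l, a regulator of cell growth, was at 156, 274 and 249, and 89.4 and 156 CPM (-1.14, adjusted p = 0.0586), and Ifi35 at 44.0, 56.3 and 56.7, and 52.3 and 48.1 CPM (-0.17, adjusted p = 0.338). Ifi35 shares 16.8% of its exon bases with the antisense gene Gm11626.

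**Figure D2:**
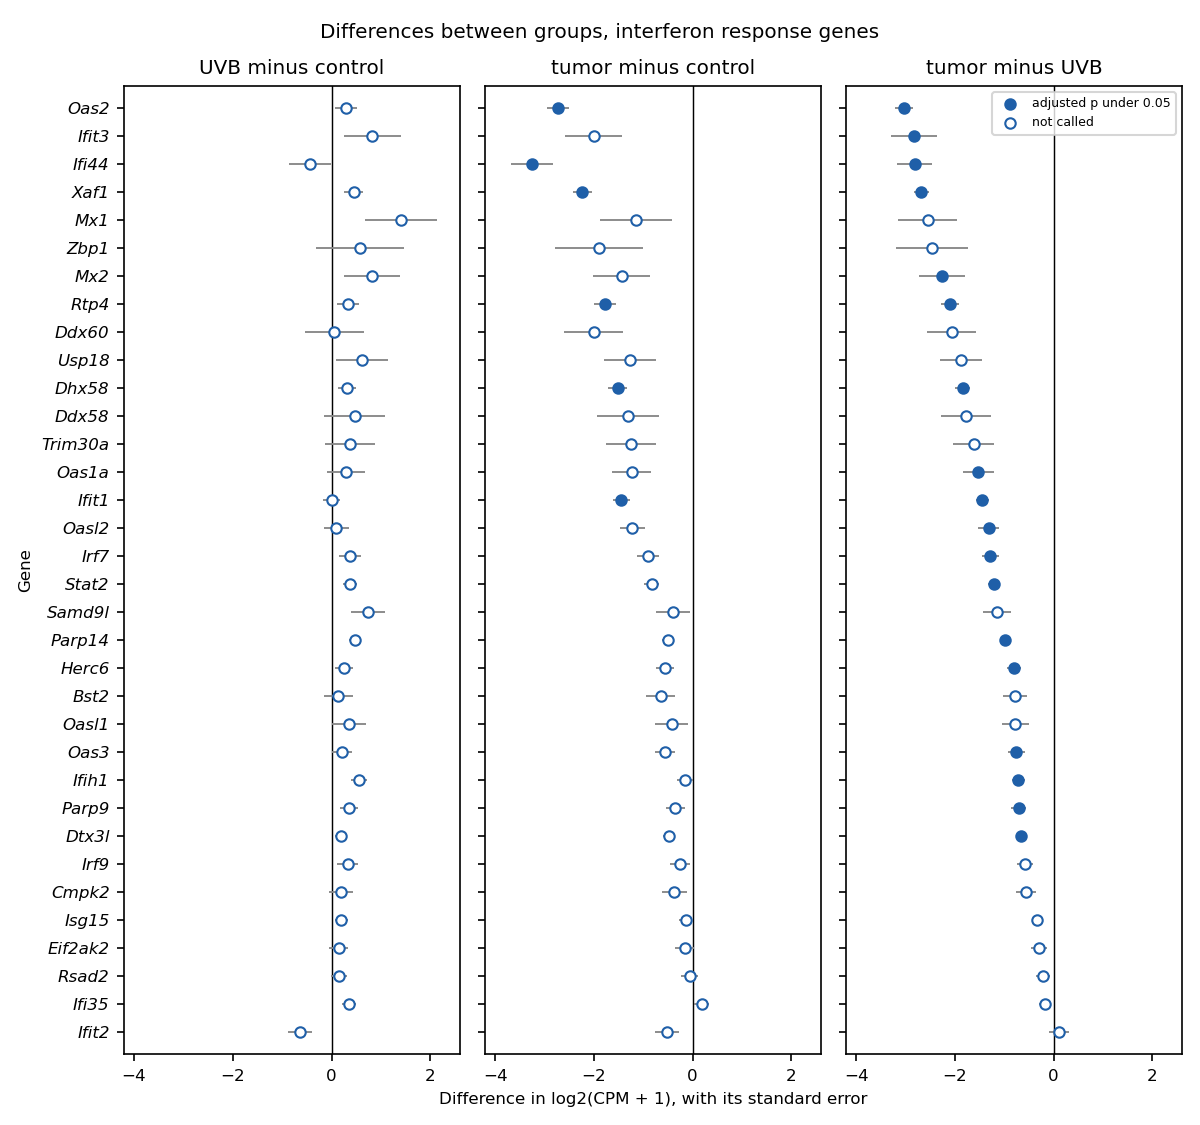
Differences in log2(CPM + 1) with their standard errors for the 34 genes in the 3 comparisons, filled where the adjusted p in limma was under 0.05. In tumor minus UVB 18 genes are filled, all below 0, in tumor minus control 6, all below 0, and in UVB minus control 0.

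These calls needed both UVB libraries. Without UVB 1 or without UVB 2 limma called 0 of the 34 (17 and 15 at unadjusted p under 0.05), as it called 0 of all genes. With tumor 1 left out it called 30 of the 34, all lower, and 38% of all tested genes. With tumor 2 left out it called 29 lower and 1, Ifit2, higher (0.36, adjusted p = 0.0406), and 52.6% of all tested genes. On recovered reads of the 5 libraries edgeR called 15 of the 34 and 13.4% of all tested genes, and DESeq2 25 of the 34 and 21.7% of the genes to which it gave an adjusted p. The split of all called genes was 72.4% higher in the tumor libraries with CPM scaling, 60.2% with TMM scaling and 44.6% with DESeq2, while 0 of the 34 was called higher under each of these. Markers of other cells also differed between the spleen groups. Called lower in tumor than UVB spleens were 7 of 18 macrophage markers (among them Siglec1, Mertk and Mrc1) and 2 of 14 monocyte markers (F13a1 and Fcgr1). Of the monocyte markers 1 (Ly6c1) was called higher. Of all tested genes 4.7% were called lower and 12.3% higher. The median was -1.055 over macrophage, -1.14 over monocyte and -1.23 over dendritic cell markers, beside -1.24 over the 34 genes. It was -0.955 over T and NK cell, -0.31 over neutrophil and -0.28 over platelet markers. Of 9 tested dendritic cell markers limma called 0 lower and 1 (Zbtb46) higher (1.05, adjusted p = 0.0467). Of 11 tested T and NK cell markers 1 (Cd4) was called lower, and of the neutrophil and platelet markers 0 were called. The part of these markers in the differences was not tested. The 10 B cell markers had a median of -1.20, and 0 of them were called in either direction. The 12 markers of plasmacytoid dendritic cells, strong producers of interferon, include Bst2 of the 34 genes and summed to 774.5 CPM in control marrow, 876 and 859 in UVB spleens and 264 and 591 in tumor libraries. Over the 11 tested the median was -0.998 and 1, Cox6a2, was called lower (-1.64, adjusted p = 0.0349). Their part in the differences was not tested. Siglech, their defining marker, was at 3.14 CPM in control marrow, 1.98 and 0.671 in UVB spleens and 0.355 and 1.45 in tumor libraries. It was not called (-0.29, adjusted p = 0.639). Spib, Tcf4 and Irf8, at 239.5, 214 and 204 CPM in control marrow, made up most of the summed level in each library. None of them was called (adjusted p = 0.165, 0.155 and 0.0676), so the sum does not give the number of these cells.

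**Figure D3:**
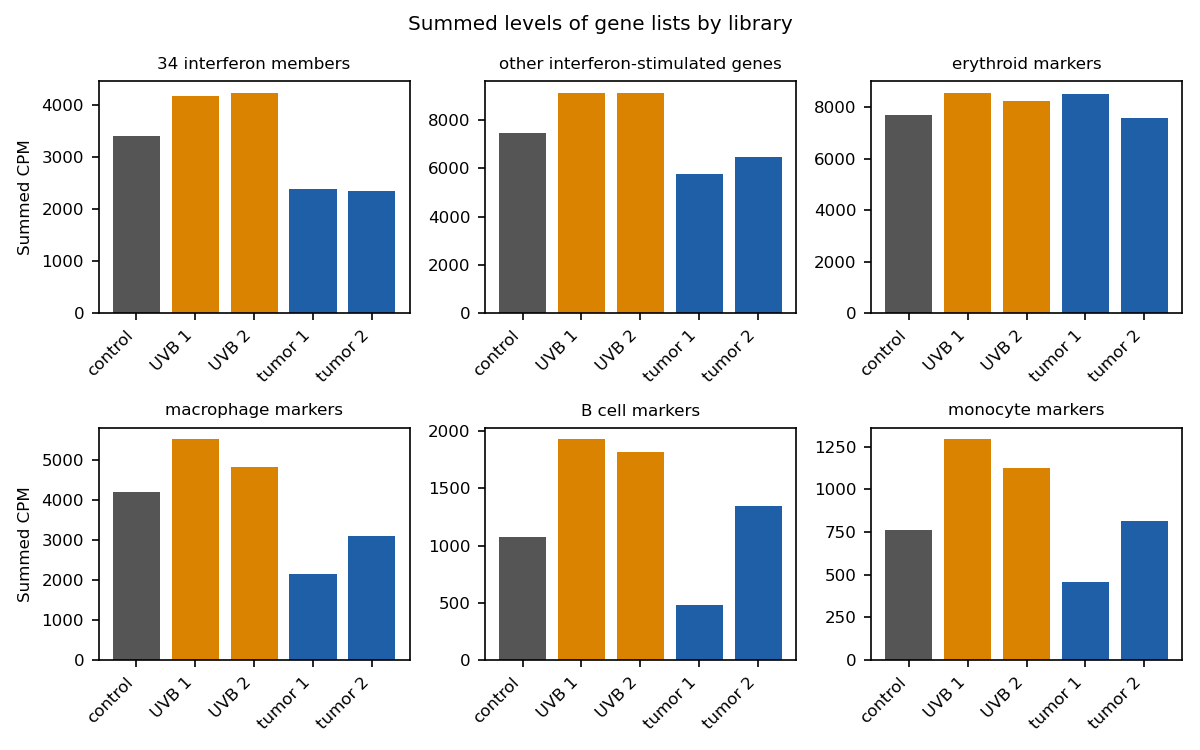
Summed CPM, less the read that the authors added to each gene, of the 34 interferon response genes, of other interferon-stimulated genes and of markers of 4 cell types, with 1 bar per library and axes that start at 0. The 34 genes sum to 2351 to 2380.5 CPM in the tumor libraries, and B cell markers to 478 in tumor 1 and 1344 in tumor 2.

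Within the tumor pair the genes differed in both directions. Tumor 1 lay below tumor 2 in 14 genes and above it in 20, while 56.2% of all tested genes lay lower in tumor 1. Over 2-fold apart were 9 genes, or 26.5%, against 18.2% of all tested genes. In 8 of these tumor 1 was the lower library, namely Zbp1, Mx1, Ifi44, Mx2, Ifit3, Ddx58, Ddx60 and Trim30a, with ratios of tumor 2 to tumor 1 from 2.32 to 6.12. In the other one, Usp18, the ratio was 0.423. Oas1a, Oasl1, Oasl2 and Cmpk2 also lay higher in tumor 1, with ratios from 0.546 to 0.688, and Xaf1, Oas2, Rtp4, Ifit1 and Dhx58 differed little (0.868 to 0.977). In the UVB pair the ratio of UVB 2 to UVB 1 ran from 0.816 to 1.31 over the 34 genes, with 0 over 1.5-fold apart. Summed over the 34 genes the level was 2380.5 CPM in tumor 1 and 2351 in tumor 2. Beside this, macrophage markers summed to 2149 CPM in tumor 1 and 3104 in tumor 2, B cell markers to 478 and 1344, and monocyte markers to 458 and 814. Lower in tumor 1 than in tumor 2 were 18 of 18 macrophage, 10 of 10 B cell and 13 of 14 monocyte markers, and 5 of 19 erythroid markers. The part of these markers in the gaps was not tested.

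**Figure D4:**
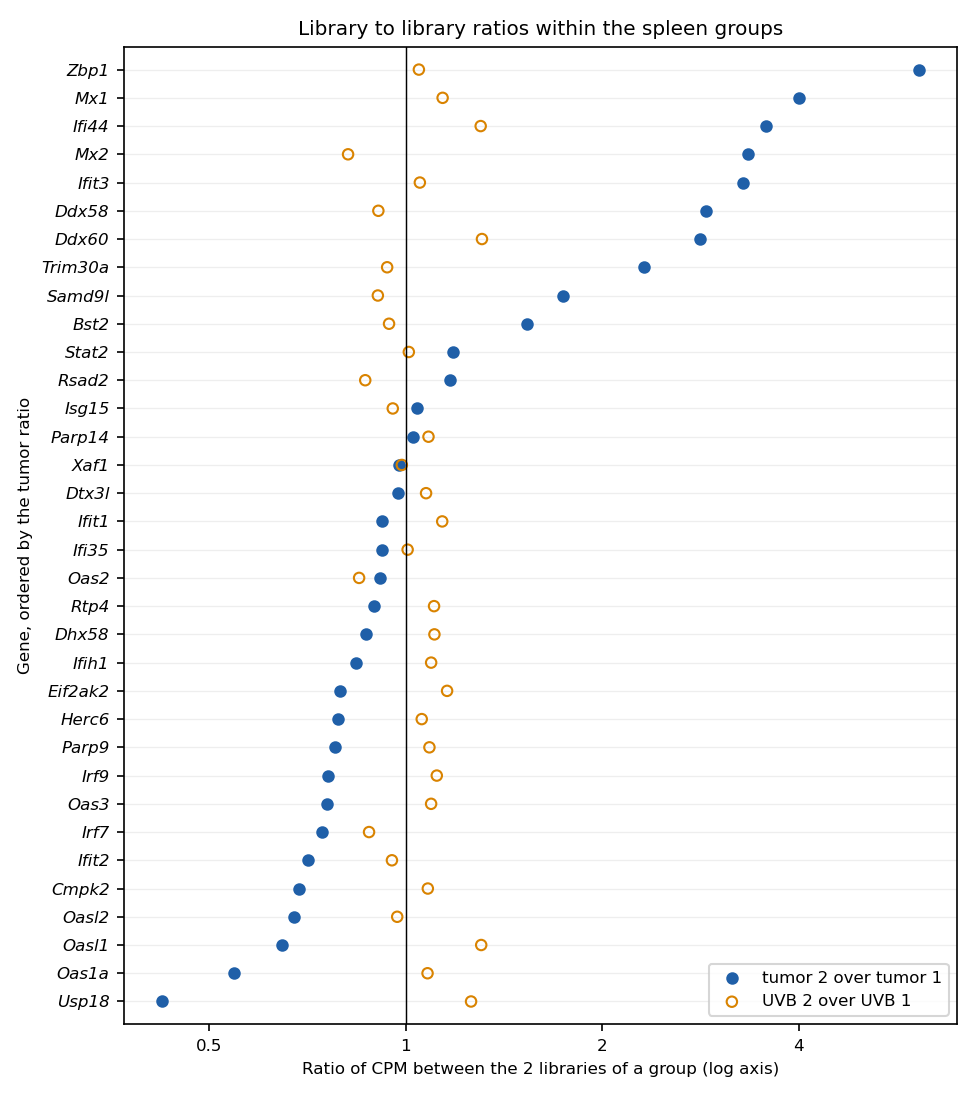
Ratio of CPM between the libraries of a group for each of the 34 genes, on a log axis, with tumor 2 over tumor 1 in filled blue and UVB 2 over UVB 1 in open orange. The tumor ratios spread from 0.423 (Usp18) to 6.12 (Zbp1), and the UVB ratios from 0.816 to 1.31.

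Promoter sequences were searched because 18 of the genes fell together and the ISRE is the family's known element. RefSeq windows (GRCm38.p6, 250 bases before to 50 after the start) were at hand for 25 of the 34, in 28 windows. Not matched were Oas2, Dhx58, Rtp4, Parp14, Mx1, Mx2, Parp9, Usp18 and Zbp1. The ISRE letters GAAA, any 2 bases and GAAA again, on either strand and with overlapping matches counted, were found in 14 of 28 windows (50%) and in 3.44% of all 32851 windows. By gene, 6 of 12 with a window that were called in tumor against UVB held a match, and 7 of the 13 that were not. The GAS letters TTCNNNGAA, the element of STAT dimers, were found in 5 of 28 windows (17.9%) and in 8.3% of all. The following stretches show the called genes with an ISRE match and the smallest p, read along the gene, with up to 45 bases on each side of the first match and every match in capitals (TTTC, any 2 bases and TTTC is the same element on the other strand). A match describes the letters only and is not a measured binding site.
Ifit1 (chr19:34640740-34640839, plus strand): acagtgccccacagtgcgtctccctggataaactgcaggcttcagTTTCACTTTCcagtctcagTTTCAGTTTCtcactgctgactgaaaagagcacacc
Stat2 (chr10:128270248-128270330, plus strand): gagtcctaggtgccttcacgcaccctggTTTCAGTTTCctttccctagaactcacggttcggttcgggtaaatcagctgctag
Ifit3 (chr19:34583328-34583427, plus strand): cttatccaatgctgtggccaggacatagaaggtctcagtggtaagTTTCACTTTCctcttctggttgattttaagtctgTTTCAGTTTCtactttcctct
Ifih1 (chr2:62646206-62646268, minus strand): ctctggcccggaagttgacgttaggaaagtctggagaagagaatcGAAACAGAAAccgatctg
Oas1a (chr5:120907491-120907590, minus strand): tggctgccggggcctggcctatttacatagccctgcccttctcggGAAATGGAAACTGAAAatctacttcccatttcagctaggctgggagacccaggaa
Oas3 (chr5:120777680-120777779, minus strand): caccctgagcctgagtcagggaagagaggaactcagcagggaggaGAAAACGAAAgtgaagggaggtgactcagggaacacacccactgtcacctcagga

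The first match began 104 bases before the start in Ifit1, 222 in Stat2, 156 in Ifit3, 20 in Oas1a and 75 in Oas3, and 32 bases after it in Ifih1. Ifit1, Ifit3 and Oas1a held 2 matches each, which overlap in Oas1a. Xaf1 and Ifi44, called with differences of -2.68 and -2.81, held no exact match in their windows, which are given whole to show the called genes without a match. Forms with another spacing, such as gaaacgaaa in Xaf1 and tttcgtttc in Ifi44, were not counted.
Xaf1 (chr11:72301379-72301678, plus strand): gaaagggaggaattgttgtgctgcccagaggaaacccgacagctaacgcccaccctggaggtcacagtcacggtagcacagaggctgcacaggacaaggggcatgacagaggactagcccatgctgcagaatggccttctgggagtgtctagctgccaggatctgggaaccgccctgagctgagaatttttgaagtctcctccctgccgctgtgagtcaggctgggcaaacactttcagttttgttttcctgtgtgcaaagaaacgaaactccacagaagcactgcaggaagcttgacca
Ifi44 (chr3:151749861-151750160, minus strand): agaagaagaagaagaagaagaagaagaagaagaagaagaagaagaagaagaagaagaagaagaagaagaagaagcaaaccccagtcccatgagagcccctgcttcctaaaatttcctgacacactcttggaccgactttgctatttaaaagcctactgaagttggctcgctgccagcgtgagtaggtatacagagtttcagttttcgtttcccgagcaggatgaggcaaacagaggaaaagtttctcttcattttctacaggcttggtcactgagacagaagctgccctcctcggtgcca

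The interferon genes themselves had few reads. Of 19 matched interferon ligand genes 14 had 0 reads in every library, which allows up to 0.503 to 0.595 CPM each by library (a floor of 3 reads, counting error only). Ifnb1 had 1 read in all, in UVB 2, and Ifng had 2 in the control, 0 and 2 in UVB spleens and 1 and 2 in tumor libraries. The receptor genes were well measured. Ifnar1 was at 165 CPM in control marrow, 188 and 168 in UVB spleens and 100.4 and 122 in tumor libraries and fell in tumor against UVB (-0.68, SE 0.14, adjusted p = 0.045). Ifnar2 was at 130, 148 and 132.5, and 106 and 96.8 CPM and was not called (-0.46, adjusted p = 0.0578). Il10rb, a receptor chain of interferon lambda and interleukin 10, was called lower at 68.5, 100.3 and 87.6, and 41.7 and 57.0 CPM (-0.93, adjusted p = 0.0444).

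Of the genes that relay or restrain the signal, Irf2, which competes with Irf1 for DNA, fell in tumor against UVB spleens, from 122 and 122 CPM to 74.7 and 89.0 (-0.58, adjusted p = 0.048). Socs3, a feedback inhibitor of cytokine receptors, rose from 15.9 and 26.2 CPM to 72.9 and 57.3, with 10.8 in the control (1.62, adjusted p = 0.0365). The kinase genes Jak1 (331 CPM, 401 and 379, and 380.5 and 375) and Tyk2 (94.0, 139 and 118, and 89.8 and 111) were not called (adjusted p = 0.734 and 0.162). Socs1, at 7.15, 5.95 and 7.21, and 16.7 and 11.9 CPM, and Irf1, at 92.6, 122 and 110.2, and 22.0 and 61.9 CPM, were not called either (adjusted p = 0.0694 and 0.0845).

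Of 23 genes that sense nucleic acids or relay the signal to interferon genes, 5 fell, namely Mavs, the adaptor of RIG-I and MDA5, Tlr8, Rnf135, Ifi204 and the DNA sensor gene Aim2, where 4.7% of all tested genes were called lower. Aim2 was at 75.7 CPM in control marrow, 96.8 and 99.7 in UVB spleens and 38.8 and 41.1 in tumor libraries (-1.28, adjusted p = 0.02). Irf3, the factor that starts interferon transcription, was at 83.4, 94.8 and 89.8, and 77.2 and 87.7 CPM and was not called (adjusted p = 0.34). In a wider list of interferon-stimulated genes outside the 34, 17 of 75 tested fell and 2 rose, with a median of -0.92, where 4.7% of all tested genes were called lower and 12.3% higher and their median was 0.0146. Among those that fell were Oas1b, Oas1g, Ifi27, Trim21, Trim12c, Trim26, Slfn5, Sp100, Sp110, Tor1aip1, Lgals3bp, Phf11a, Phf11d, Parp10, Parp12 and Tdrd7. Slfn5 was at 73.95 CPM in control marrow, 108 and 131.5 in UVB spleens and 10.8 and 33.1 in tumor libraries (-2.58, adjusted p = 0.0444), and Parp12 at 74.1, 90.0 and 92.1, and 37.2 and 25.9 CPM (-1.52, adjusted p = 0.0249). Slfn3, a member of the same family as Slfn5, rose from 13.1 and 13.2 CPM to 47.5 and 36.9 (1.60, adjusted p = 0.023). Pnpt1, a mitochondrial RNA nuclease, rose from 94.2 and 82.9 to 138.5 and 132 CPM (0.61, adjusted p = 0.0379).

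Against the control marrow 6 of the 34 genes fell in the tumor spleens and 0 rose, where 2.59% of all tested genes were called lower and 1.2% higher. They were Oas2 (-2.73, SE 0.22, adjusted p = 0.0211), Xaf1 (-2.23, SE 0.19, adjusted p = 0.0218), Ifit1 (-1.44, SE 0.17, adjusted p = 0.0336), Dhx58 (-1.52, SE 0.19, adjusted p = 0.0358), Rtp4 (-1.77, SE 0.22, adjusted p = 0.0359) and Ifi44 (-3.25, SE 0.43, adjusted p = 0.0385). Both tumor libraries lay below the control library in 31 of 34 genes, against 37.9% of all tested genes, and the median was -0.87 against -0.0105. Ifi35 was the gene above the control in both, at 52.3 and 48.1 against 44.0 CPM, as were 39.3% of all tested genes. In the wider lists Aim2 fell (-0.91, adjusted p = 0.0473) and Socs3 rose (2.48, adjusted p = 0.0462). Without UVB 1 or without UVB 2 limma called 0 of the 34 (11 at unadjusted p under 0.05 in each), without tumor 1 it called 24 (22.6% of all tested genes) and without tumor 2 it called 23 (36.2%). Over genes averaging 5 CPM or more it called 2, Oas2 and Xaf1. Beside this, 2 of 18 macrophage markers (Siglec1 and Vsig4), 1 of 14 monocyte markers (F13a1) and 8 of 15 neutrophil markers were called lower than in the control, and their part in the differences was not tested.

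Between UVB spleens and control marrow limma called 0 of the 34, against 2.33% of all tested genes, and edgeR and DESeq2 also called 0. At unadjusted p under 0.05 there were 2, Parp14 (0.47, SE 0.12, adjusted p = 0.177) and Ifih1 (0.55, SE 0.16, adjusted p = 0.228), against 15.2% of all tested genes. The values stood mostly above the control, with both UVB libraries higher in 30 of 34 genes, where 34.8% of all tested genes were, and a median of 0.33 against -0.061. Mx1 had the highest value, 13.4 CPM in the control and 37.3 ± 3.44 (SD, n = 2) in UVB libraries (1.41, SE 0.73, adjusted p = 0.447). Ifit2 and Ifi44 were lower in both UVB libraries (-0.64 and -0.44, adjusted p = 0.338 and 0.678), as were 47.9% of all tested genes. This fit shares its spread with the tumor libraries, and without tumor 1 or without tumor 2 it called 10 of the 34, 9 higher and 1 lower, where it called 3147 and 3127 of all genes. Siglec1, an interferon-induced receptor that also marks macrophages, was at 368 CPM in control marrow, 162 and 177 in UVB spleens and 19.3 and 33.8 in tumor libraries, below the control in all 4 spleen libraries. The defining macrophage gene Emr1 (Adgre1) was at 228, 375 and 306, and 107 and 203.5 CPM. In UVB spleens 4 of 15 neutrophil markers and 1 of 14 monocyte markers (F13a1) were called lower than in the control, against 2.15% of all tested genes. The median over neutrophil markers was -3.69 in UVB against control and -4.34 in tumor against control. In UVB against control it was 1.017 over B cell, 1.045 over dendritic cell, 0.29 over macrophage and 0.027 over monocyte markers. Of the B cell, dendritic cell and macrophage markers 0 were called. The part of all these markers in the differences was not tested.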

How the data were processed

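The 34 genes and the other lists were chosen with earlier results of these data known. Per the labels' protocols, polyA RNA of CD71-selected cells was made into libraries with an Illumina TruSeq kit. The submitters' processing notes name STAR, HTSeq and mm10. Versions, gene annotation, strandedness and handling of duplicates are unstated (not given in the sources used here). The authors deposited CPM values in 2 tables of 39179 genes, with the same control values in both. As the values show, the authors raised each gene by 1 read and then scaled libraries to 1000000. Reads could be recovered, since 100% of values were whole multiples of 1 read (relative tolerance 1e-06). The log2 fold change columns deposited by the authors compare 1 spleen library with the control and were not used.

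The 15006 genes averaging 1 CPM or more were tested two-sided by limma 3.58.1 (limma-trend, log2(CPM + 1)). A single fit held the 5 libraries and left 2 residual degrees of freedom, and the lone control was taken to be as variable as the spleen libraries. The Benjamini-Hochberg adjustment ran over all these genes. Recovered reads were also tested with edgeR 4.0.16 (quasi-likelihood, TMM) and DESeq2 1.42.0. Exon lengths and positions come from GENCODE M21 (GRCm38, the assembly of mm10), which holds 37607 of the identifiers, and promoters from RefSeq. Near-identical copies (Ifit, Oas1, Mx, Trim30) could share reads, so their values are uncertain. Named were all 34 genes, the called genes of the other interferon lists, and pathway and marker genes fixed by name, of which some are not reported here. Alternatives were other pseudocounts, filters, scaling, tools, a replicate block and each spleen library left out. Reads have no molecular identifiers, so floors cover counting error only.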

Additional observations from a re-analysis of the deposited data

Results flagged for a closer look

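The difference from the control library differed between the tumor and UVB libraries in 18 of the 34 genes, as the direct comparison of the spleen groups (limma, adjusted p under 0.05) showed. The control drops out of that comparison, so these are the same 18 calls as above. Of all 15006 tested genes 17% were called in it, 4.7% lower and 12.3% higher. Groups of 1 or 2 libraries are too small to look for single libraries that stand apart.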

How the results depend on the processing

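Of the 34 genes in each comparison, over all alternatives, the call and direction stayed as reported in 454 of 476 values for UVB against control, 412 of 476 for tumor against control and 387 of 510 for tumor against UVB. Of the 18 calls in tumor against UVB, 10 held in all 12 alternatives other than the replicate block and those that leave out a UVB library, and of the 6 in tumor against control 2 (Oas2 and Xaf1) held in 11.

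Leaving out 1 spleen library at a time gave 0 to 10 calls in UVB against control, 0 to 24 in tumor against control and 0 to 30 in tumor against UVB, the 0 being without UVB 1 or without UVB 2. The medians then ran from 0.258 to 0.353, from -0.865 to -0.726 and from -1.27 to -1.06. Requiring a mean of 5 CPM left 2 calls in tumor against control, and limma without a trend left 10 in tumor against UVB. The log2(CPM + 5) scale moved the medians to -0.772 (tumor against control) and -1.16 (tumor against UVB). TMM scaling gave medians of 0.37 (UVB against control) and -1.29 (tumor against UVB), edgeR 0.378 and -1.3, and DESeq2 0.367 and -1.3. The share of all called genes that were higher in UVB than control was 7.74% as reported and 33.3% in DESeq2, and in tumor against control 31.6% as reported and 16.1% in edgeR.

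The direction turned in 5 values, not called with all libraries, each when 1 library was left out, and over the libraries left out they ran from -0.0912 to 0.0922 for Ifit1 and -0.132 to 0.247 for Ddx60 (UVB against control), from -0.173 to 0.0529 for Rsad2 and -0.321 to 0.00899 for Eif2ak2 (tumor against control), and from -0.128 to 0.358 for Ifit2 (tumor against UVB), whose 0.358, without tumor 2, was called higher. The causes were not tested.

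Replicate numbers are shared by the UVB and tumor groups. The deviations of same-numbered libraries had a correlation of -0.111 over 15006 genes. With only 2 pairs this cannot show whether the numbers pair the samples, and the main fit did not pair them. With the replicate block limma called 0 of the 34 in each comparison (2, 15 and 27 at unadjusted p under 0.05). It also called 0 of all 15006 genes in each (1804, 2808 and 5511 at unadjusted p under 0.05). With the crossed pairing, added after seeing the data, limma called 0, 4 and 25 of the 34. Of all tested genes it then called 1.67%, 2.67% and 19.5%. Libraries of 5003923 to 5921270 reads set the precision, and differences in genes of a few reads may not be detectable at this depth.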
